A study of Drosophila melanogaster with 15 samples.

Results

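The libraries labelled ttk-RNAi were compared with the wild-type control libraries (Ctrl) of sorted midgut progenitor cells of adult Drosophila melanogaster. The comparison covers the 7428 of 17558 listed genes that had at least 1 FPKM (fragments scaled to the length of the gene and the total of the library) in at least 3 of these 6 libraries. There were 3 Ctrl and 3 ttk-RNAi libraries among the 15 of the series, whose other groups overexpressed dpn, the intracellular domain of Notch (Nicd), or seq together with Nicd. Per the labels, the Ctrl genotype is Wild type and the other is ttk-RNAi, both groups are adults on day 7, and each sample is RNA of about 10000 sorted cells, described in the protocol as intestinal stem cells marked by GFP, and was amplified before sequencing. Neither a driver line nor the RNAi construct, sex, batch or day of sorting is given there. Whether replicates are separate groups of flies is also not said, so that p-values reflect the spread of these libraries alone, and that spread may be technical.

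The gene ttk encodes Tramtrack, a repressor with a BTB domain and zinc fingers, known in the fly for holding back neural fates in cells that are not neurons. In the adult midgut, stem cells renew themselves and give rise to absorptive enterocytes and to enteroendocrine cells, which secrete peptide hormones. Neuroblasts, the stem cells of the nervous system, are known for factors such as Deadpan and Worniu.

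The targeted gene was read first. The gene ttk (FBgn0003870, BDGP6.54 3R:31713867-31735392) was at 43.6, 11.1 and 36.1 FPKM in Ctrl and 113, 87.05 and 100.1 in the libraries labelled ttk-RNAi. All 3 libraries labelled ttk-RNAi lay above all 3 Ctrl libraries, although RNAi is meant to lower its target. The mean was 3.31-fold higher (adjusted p = 0.018, from limma with Benjamini-Hochberg adjustment, as for every adjusted p here), and its call was lost without ttk-RNAi replicate 1 or 3 (adjusted p from 0.055 to 0.068). The name ttk-RNAi is therefore used only as a label, and each direction below is that of libraries so labelled, in which a loss of ttk RNA was not seen. Of the other genes named in the labels, dpn rose and N fell, as described below, and seq was listed at 0 in all 6 libraries, with all of its exon bases shared with other genes.

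The labelled cell type was checked against markers. Of 10 progenitor markers 8 were matched. Their summed level was 235 to 480.1 FPKM in Ctrl and 329 to 338 in ttk-RNAi, with 2 that rose and 1 that fell of 8 tested. klu and Su(H) rose and Delta fell, so the overlapping sums hold opposite changes. The unmatched markers were esg and hdc, so neither entered this sum or these calls. The 14 enteroendocrine markers summed to 12875 to 62304 FPKM in Ctrl and 1009 to 1152 in ttk-RNAi, and 7 fell and 2 rose of 13 tested. Most of this sum in Ctrl was NPF, which fell. The 12 enterocyte markers summed to 309.5 to 592 FPKM in Ctrl and 239 to 332 in ttk-RNAi, with 5 that fell and 1 that rose of 11 tested. The 7 neuroblast markers summed to 56.8 to 71.3 FPKM in Ctrl and 336 to 375 in ttk-RNAi, with 2 that rose and 1 that fell of 4 tested. Their members ase, nerfin-1 and grh were below 1 FPKM in all 6 libraries. In ttk-RNAi most of this sum was dpn, whose reads are uncertain, as described below. The other riser was wor, while insc fell and mira did not pass. The 8 neuron markers, of which 7 were matched, summed to 41.7 to 70.9 FPKM in Ctrl and 162 to 184 in ttk-RNAi. Of 7 tested, 3 rose and 1 fell. Most of this sum in ttk-RNAi was Appl, which rose, while Syt1 fell and elav, nSyb and brp did not pass. Tracheal markers, 3 of 4 matched, summed to 0.249 to 0.614 FPKM in Ctrl and 10.9 to 12.1 in ttk-RNAi, with verm as the 1 tested member, which rose, and trh and serp below 1 FPKM in all 6 libraries. The part of these marker levels in the results was not tested. Also below 1 FPKM in all 6 were the glial genes repo, gcm, alrm and wrapper, the haemocyte genes Hml, NimC1, Pxn, eater and He, and the muscle gene Mhc. The 5 glial markers, with moody as the 1 tested, summed to 71.0 to 229 FPKM in Ctrl and 159 to 162 in ttk-RNAi. The 7 haemocyte markers, with srp and crq tested, summed to 9.98 to 22.8 FPKM in Ctrl and 25.8 to 28.8 in ttk-RNAi. None of these tested members was called. In a wider glial list of 6 tested genes, Eaat1 and Gs2 rose (33.3%) and loco fell (16.7%). Of all tested genes 30.2% rose and 11.6% fell. Muscle markers, 10 of 11 matched, summed to 5.89 to 14 FPKM in Ctrl and 11.3 to 11.5 in ttk-RNAi. In these bulk samples, fewer cells of a type and less RNA per cell cannot be told apart.

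Estimated depth was 2.51e+07 to 3.84e+07 reads in Ctrl and 5.11e+07 to 5.596e+07 in ttk-RNAi. The Ctrl libraries were less alike, with a median standard deviation of log2(FPKM + 1) of 0.397 against 0.0899 in ttk-RNAi. NPF alone took 0.679%, 5.95% and 2.497% of assigned reads in Ctrl replicates 1, 2 and 3. Ctrl replicate 2 had the least depth and stood apart, so counts are also given without it.

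Among the genes that rose in ttk-RNAi were the neuroblast factors dpn, sna and wor, the apoptosis genes rpr and skl, and the immune gene Listericin. Among those that fell were the peptide hormones NPF, Tk, AstC and Orcokinin and the E(spl) genes E(spl)m3-HLH and E(spl)malpha-BFM. Other members of the same lists went the other way. The neuroblast-list genes lin-28, insc and pnt and the apoptosis gene hid fell, and the hormone CCHa1 and E(spl)mgamma-HLH rose. Of the 7428 tested genes, 2243 (30.2%) were higher and 862 (11.6%) lower in ttk-RNAi at an adjusted p under 0.05, and only such genes are said to have risen or fallen. The shares of 30.2% and 11.6% are the ones to set beside those of each list below. Rises made up 72.2% of the calls, and the median log2 change of all tested genes was 0.30. With columns scaled to a common median, 1720 (23.2%) rose and 1442 (19.4%) fell, so that rises were 54.4% of the calls. Without Ctrl replicate 2, 2867 (38.6%) rose and 1719 (23.1%) fell. The libraries of both groups did not overlap for 3143 genes that were higher (42.3%) and 1248 that were lower (16.8%). Of 842 genes with a Ctrl mean under 1 FPKM, which passed the filter through ttk-RNAi, 727 rose, and of 308 genes with a ttk-RNAi mean under 1 FPKM, 239 fell. Levels with ± are group means in FPKM with the SD of 3 libraries. Folds are ratios of these means, and tests were run on log2(FPKM + 1). Where leaving out 1 library moved the fold of a called gene by more than 1.5 times, the new fold is given.

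Of the 10 tested genes of ttk degradation and co-repression, 2 (20%) rose and 0 fell, with a median log2 change of 0.48. At a common median 2 rose and 1 fell, and the counts were 4 and 2 without Ctrl replicate 2 and 1 and 0 without ttk-RNAi replicate 1, 2 or 3. sina, a ubiquitin ligase that targets Ttk, was 1.88-fold higher, at 12.04 ± 0.696 FPKM against 6.41 ± 1.67 in Ctrl (adjusted p = 0.023). For sina its call was lost without ttk-RNAi replicate 1, 2 or 3 (adjusted p from 0.088 to 0.11). HDAC1, a histone deacetylase, rose from 16.2 ± 0.648 to 47.5 ± 3.37 FPKM, 2.92-fold (adjusted p = 6.0e-04).

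**Figure D1:**
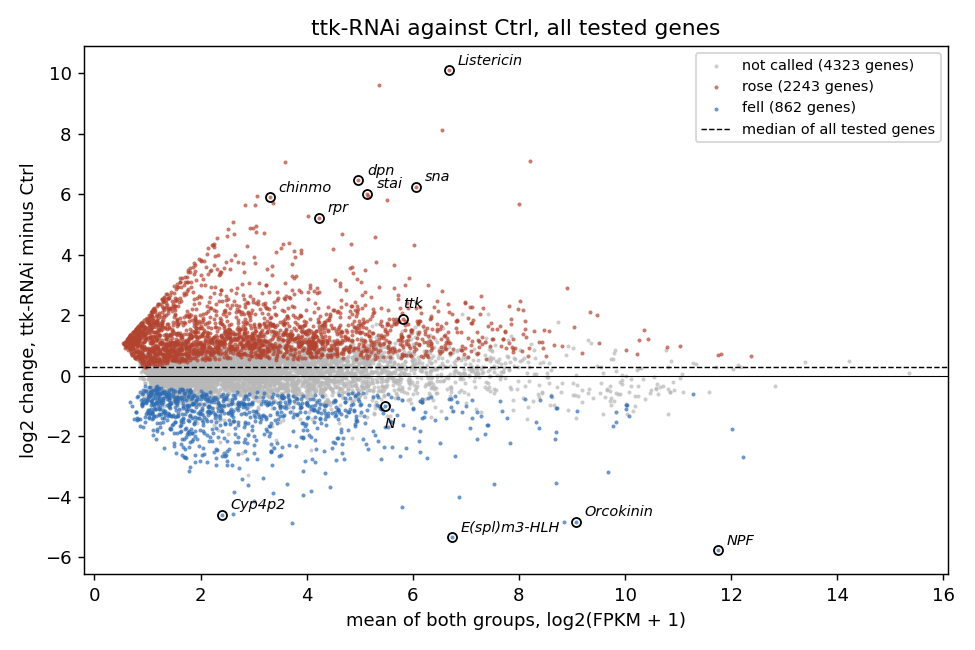
Each point is 1 of the 7428 tested genes, placed by its mean log2(FPKM + 1) over both groups and its log2 change in ttk-RNAi against Ctrl, with 2243 genes that rose in red, 862 that fell in blue and the rest in grey. The dashed line is the median change of all tested genes, 0.30.

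On the log2(FPKM + 1) scale, the largest rise among genes with a mean of at least 10 FPKM in the higher group was that of Listericin, a gene of secreted antibacterial defence, which was at 1.39, 1.503 and 3.49 FPKM in Ctrl and 3887, 2667 and 3453 in the libraries labelled ttk-RNAi. CG13460, listed by annotation symbol only, was at 0.539, 0.294 and 0.592 FPKM in Ctrl and 1131, 1158 and 1117 in the libraries labelled ttk-RNAi. The long non-coding RNA lncRNA:CR30009 was at 4.48, 3.15 and 6.56 FPKM in Ctrl and 1464, 1689.7 and 1486 in the libraries labelled ttk-RNAi. In these genes each ttk-RNAi library was far above each Ctrl library, with means 1567-fold (adjusted p = 6.1e-06), 2391-fold (adjusted p = 1.5e-06) and 327-fold (adjusted p = 6.1e-06) higher. The abundant lncRNA:CR44272 was 140.2-fold higher, at 3452 ± 128 against 24.6 ± 4.97 FPKM (adjusted p = 6.1e-06).

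Other genes of the 20 largest rises came from near 0 in Ctrl, where few reads lie behind the fold. Idgf4, an imaginal disc growth factor related to chitinases, was 3091-fold higher, at 139.8 ± 5.597 FPKM against 0.0452 ± 0.0429 in Ctrl (adjusted p = 4.3e-06, 95% counting interval of the fold 1628 to 6759). For Idgf4 the fold was 5547 without Ctrl replicate 1 and 2061 without Ctrl replicate 2. CG12523 rose from 0.0783 ± 0.117 to 64.6 ± 4.92 FPKM, 826-fold (adjusted p = 6.1e-06, 95% counting interval of the fold 435 to 1806). For CG12523 the fold was 551 without Ctrl replicate 2 and 5757 without Ctrl replicate 3. CG45154 was 2948-fold higher, at 49.9 ± 5.102 FPKM against 0.0169 ± 0.0293 in Ctrl (adjusted p = 6.1e-06, 95% counting interval of the fold 529 to 116427). For CG45154 the fold was 1965 without Ctrl replicate 1 and 1965 without Ctrl replicate 2. CG12911 rose from 0.0491 ± 0.0255 to 34.96 ± 7.22 FPKM, 713-fold (adjusted p = 8.3e-06, 95% counting interval of the fold 362 to 1651). Eaat1, a glutamate transporter, was 344-fold higher, at 56.5 ± 1.35 FPKM against 0.164 ± 0.0441 in Ctrl (adjusted p = 6.1e-06). Others were already measured well above 1 FPKM in Ctrl. Tsp42Ee, a tetraspanin, rose from 34.97 ± 6.66 to 1827 ± 181 FPKM, 52.3-fold (adjusted p = 8.3e-06). stai, which encodes the microtubule regulator Stathmin, was 82.4-fold higher, at 282 ± 59.9 FPKM against 3.42 ± 1.21 in Ctrl (adjusted p = 9.7e-06). sff, a protein kinase gene, rose from 1.63 ± 0.7303 to 99.3 ± 2.88 FPKM, 61.05-fold (adjusted p = 9.7e-06).

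lncRNA:CR43264 was 56.2-fold higher, at 316 ± 38.9 FPKM against 5.62 ± 4.67 in Ctrl (adjusted p = 6.8e-05). For lncRNA:CR43264 the fold was 108 without Ctrl replicate 2. CG6006, listed by annotation symbol only, rose from 3.71 ± 2.16 to 266 ± 8.28 FPKM, 71.7-fold (adjusted p = 3.2e-05). lncRNA:CR45967 was 89.4-fold higher, at 44.7 ± 2.801 FPKM against 0.5003 ± 0.156 in Ctrl (adjusted p = 8.3e-06).

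On the same scale the largest fall was that of NPF, which encodes a peptide hormone of the gut, at 6827, 55989 and 26068 FPKM in Ctrl and 417, 382 and 390.1 in the libraries labelled ttk-RNAi. The Ctrl libraries differed widely from each other, and all of them lay above all ttk-RNAi libraries. The mean was 74.8-fold lower (adjusted p = 6.6e-04), and the fold was 41.5 without Ctrl replicate 2. Orcokinin, a peptide hormone gene, fell from 2831 ± 174 to 101 ± 23.1 FPKM, 28.04-fold (adjusted p = 1.1e-05). CG10479 was 47.9-fold lower, at 1.47 ± 0.324 FPKM against 70.5 ± 12.6 in Ctrl (adjusted p = 9.7e-06). Cyp4p2, a cytochrome P450 gene, fell from 25.2 ± 7.97 to 0.0553 ± 0.0351 FPKM, 457-fold (adjusted p = 2.0e-05). tap, a bHLH factor gene, was 26.4-fold lower, at 1.53 ± 0.189 FPKM against 40.5 ± 24.5 in Ctrl (adjusted p = 3.0e-04). For tap the fold was 17.4 without Ctrl replicate 2. MtnC, a metallothionein gene, fell from 24.01 ± 13.4 to 0.527 ± 0.266 FPKM, 45.6-fold (adjusted p = 8.6e-04). CG6277 was 36.6-fold lower, at 0.727 ± 0.203 FPKM against 26.6 ± 29.01 in Ctrl (adjusted p = 0.0084). For CG6277 the fold was 13.9 without Ctrl replicate 2. CG12934 fell from 29.9 ± 14.3 to 0.1995 ± 0.09998 FPKM, 149.8-fold (adjusted p = 7.2e-05). CG14989 was 26.7-fold lower, at 10.2 ± 2.13 FPKM against 274 ± 166 in Ctrl (adjusted p = 0.0011).

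CG43218 fell from 33.7 ± 16.3 to 0.869 ± 0.221 FPKM, 38.8-fold (adjusted p = 7.9e-05). CG6357 was 16.97-fold lower, at 27.7 ± 11.2 FPKM against 470.4 ± 203 in Ctrl (adjusted p = 3.0e-04). CG43207 fell from 79.5 ± 41.3 to 4.82 ± 0.427 FPKM, 16.5-fold (adjusted p = 2.7e-04). Esyt2, an extended synaptotagmin of membrane contact sites, was 25.96-fold lower, at 1.02 ± 0.0722 FPKM against 26.5 ± 14.7 in Ctrl (adjusted p = 4.6e-04). MFS14, a transporter of the major facilitator class, fell from 42.4 ± 12.8 to 2.52 ± 0.143 FPKM, 16.9-fold (adjusted p = 6.1e-05). Genes of the E(spl) complex were also among the 20 largest falls and are described below.

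The ttk-RNAi libraries were set beside the 12 other libraries of the series as a description, since these genes were chosen on their ttk-RNAi values. The choice already required no overlap with the Ctrl libraries, which are among these 12. The same share over all tested genes was not computed, so the counts have no background to be set against. Of the 20 largest rises, 16 were higher in all ttk-RNAi libraries than in each of the other 12, and the exceptions were lncRNA:CR30009, dpn, stai and CG12911. Of the 20 largest falls, 11 were lower than in each of the other 12, and the exceptions were E(spl)m3-HLH, E(spl)malpha-BFM, CG12934, CG43218, CG6357, tap, CG43207, Tk and CG6277. In the seq&Nicd OE libraries dpn was at 225 ± 65.6 FPKM and stai at 220.2 ± 7.61 FPKM (mean ± SD, n = 3).

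**Figure D2:**
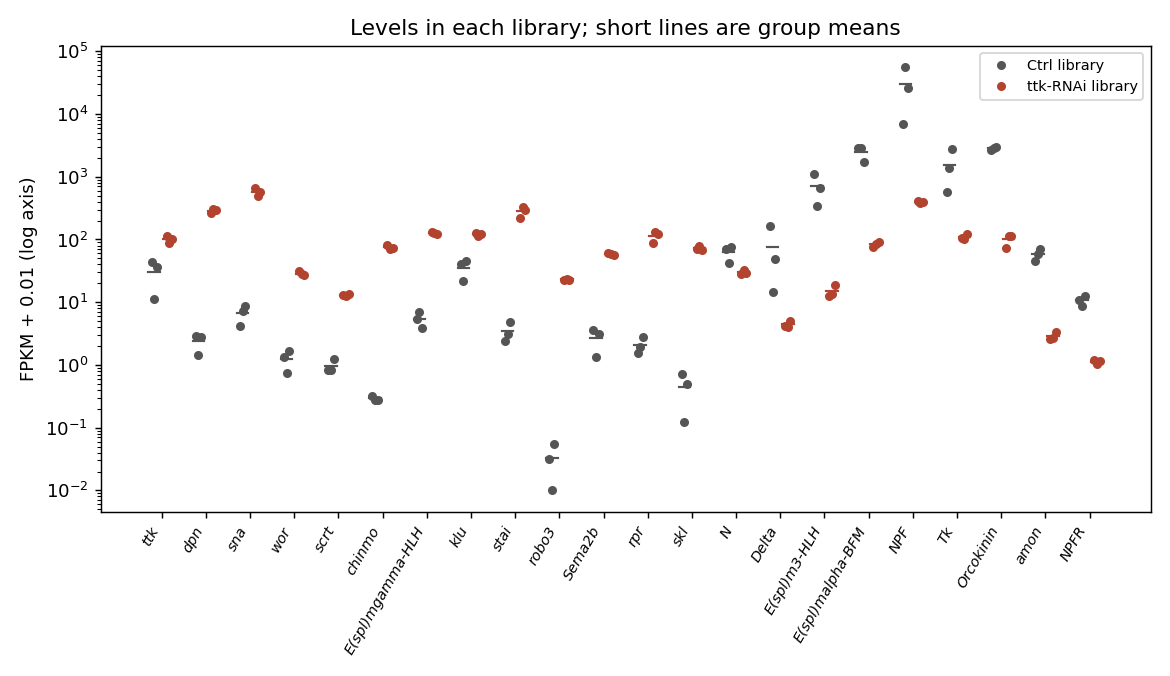
FPKM of 22 genes in each Ctrl library (grey) and ttk-RNAi library (red) on a log axis, with 0.01 added and short lines at the group means. The ttk-RNAi points of a gene mostly lie close together, while Ctrl points often spread more, as for NPF at 6827, 55989 and 26068 FPKM. Orcokinin is an exception, with ttk-RNAi points that spread more than its Ctrl points on this axis.

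Of the factors of neuroblasts, dpn, wor and sna were read in each library. Deadpan (dpn), a bHLH repressor that maintains neuroblasts, was at 2.91, 1.45 and 2.75 FPKM in Ctrl and 268, 311 and 290.0 in the libraries labelled ttk-RNAi. The zinc-finger gene sna was at 4.22, 7.23 and 8.72 FPKM in Ctrl and 666, 487 and 562 in the libraries labelled ttk-RNAi. Its relative wor, which encodes Worniu, was at 1.35, 0.734 and 1.64 FPKM in Ctrl and 30.9, 27.9 and 26.8 in the libraries labelled ttk-RNAi. In all of them the ttk-RNAi libraries lay above the Ctrl libraries, with means 122-fold (adjusted p = 8.3e-06), 85.01-fold (adjusted p = 9.7e-06) and 23.01-fold (adjusted p = 2.2e-05) higher. For dpn, 59.3% of the exon bases are shared with another gene, so its reads are uncertain. klu, a zinc-finger repressor gene, was 3.43-fold higher, at 122 ± 6.27 FPKM against 35.6 ± 12.2 in Ctrl (adjusted p = 0.0026). scrt, a zinc-finger factor of neuronal precursors, rose from 0.9499 ± 0.23 to 12.9 ± 0.544 FPKM, 13.6-fold (adjusted p = 2.6e-05). Of the 11 tested genes of neuroblast identity, 6 (54.5%) rose, including 2 with a Ctrl mean under 1 FPKM, and 3 (27.3%) fell, with a median log2 change of 1.81. Scaling to a common median gave 6 and 3, and the counts were 6 and 3 without Ctrl replicate 2. The members that fell were lin-28, insc and pnt. lin-28, an RNA-binding heterochronic factor, fell from 77.5 ± 21.3 to 18.6 ± 1.08 FPKM, 4.15-fold (adjusted p = 6.4e-04). insc, which orients asymmetric divisions, was 2.36-fold lower, at 17.4 ± 1.82 FPKM against 41.1 ± 1.62 in Ctrl (adjusted p = 0.002). pnt, an ETS factor of the EGFR pathway, fell from 9.95 ± 5.13 to 3.16 ± 0.227 FPKM, 3.15-fold (adjusted p = 0.043). For pnt its call was lost without Ctrl replicate 1 or 3 or ttk-RNAi replicate 1, 2 or 3 (adjusted p from 0.1 to 0.13).

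Of the 18 tested genes of asymmetric division, 4 (22.2%) rose, including 1 with a Ctrl mean under 1 FPKM, and 4 (22.2%) fell, with a median log2 change of 0.23. After scaling to a common median 3 rose and 4 fell, and the counts were 6 and 6 without Ctrl replicate 2 and 3 and 2 without ttk-RNAi replicate 1, 2 or 3. loco, a regulator of G-protein signalling known from glia, fell from 44.4 ± 13.5 to 21.7 ± 0.992 FPKM, 2.05-fold (adjusted p = 0.018), with 13.5% of its exon bases shared with other genes and its reads therefore uncertain. For loco its call was lost without ttk-RNAi replicate 1, 2 or 3 (adjusted p from 0.068 to 0.078). The adaptor gene mira, which segregates fate factors in neuroblasts, was at 25.5, 14.1 and 9.497 FPKM in Ctrl and 20.95, 17.2 and 21.6 in the libraries labelled ttk-RNAi (adjusted p = 0.42), and the groups overlapped.

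Of the 7 tested Snail and Sox factors, 4 (57.1%) rose, including 2 with a Ctrl mean under 1 FPKM, and 0 fell, with a median log2 change of 1.32. With columns at a common median the counts were 4 and 1, and they were 4 and 2 without Ctrl replicate 2 and 4 and 1 without Ctrl replicate 1. Sox21a, a Sox factor of gut progenitors, was at 117, 24.3 and 107 FPKM in Ctrl and 69.01, 83.8 and 77.7 in the libraries labelled ttk-RNAi. Its groups overlapped (adjusted p = 0.83), and it passed the test without Ctrl replicate 2 (adjusted p = 0.0078), where it was lower in ttk-RNAi. Of the 7 tested temporal identity factors, 3 (42.9%) rose, all 3 with a Ctrl mean under 1 FPKM, and 1 (14.3%) fell, with a median log2 change of 0.20. Columns scaled to a common median gave 3 and 1, and the counts were 3 and 3 without Ctrl replicate 2. chinmo, a BTB zinc-finger factor of early-born neurons, was 266-fold higher, at 75.2 ± 4.74 FPKM against 0.282 ± 0.0279 in Ctrl (adjusted p = 6.1e-06). Eip93F, a factor of late temporal identity, fell from 60.3 ± 8.81 to 7.97 ± 1.48 FPKM, 7.56-fold (adjusted p = 7.0e-05). Of the 9 tested BTB zinc-finger factors, 4 (44.4%) rose, all 4 with a Ctrl mean under 1 FPKM, and 1 (11.1%) fell, with a median log2 change of 0.29. These counts became 4 and 1 at a common median and 4 and 2 without Ctrl replicate 2. bab2, a BTB factor of patterning, rose from 0.974 ± 0.153 to 6.08 ± 0.916 FPKM, 6.24-fold (adjusted p = 1.4e-04). ab, the BTB zinc-finger gene abrupt, which shapes dendrites, was 5.89-fold higher, at 2.71 ± 0.197 FPKM against 0.459 ± 0.131 in Ctrl (adjusted p = 1.3e-04). ken, a BTB zinc-finger repressor, fell from 36.1 ± 12.1 to 13.7 ± 1.02 FPKM, 2.63-fold (adjusted p = 0.0097).

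Of the 20 tested Hox and patterning factors, 7 (35%) rose, including 4 with a Ctrl mean under 1 FPKM, and 4 (20%) fell, with a median log2 change of 0.29. Once scaled to a common median 7 rose and 4 fell, and the counts were 8 and 6 without Ctrl replicate 2. ind, a homeobox factor of neuroblast columns in the embryo, rose from 0.476 ± 0.415 to 15.8 ± 1.86 FPKM, 33.2-fold (adjusted p = 3.8e-05). For ind the fold was 66.6 without Ctrl replicate 2. vvl, a POU factor, was 61.7-fold higher, at 8.11 ± 0.561 FPKM against 0.131 ± 0.0693 in Ctrl (adjusted p = 9.7e-06). vnd, another homeobox factor of neuroblast columns, rose from 4.18 ± 2.13 to 15.3 ± 2.42 FPKM, 3.65-fold (adjusted p = 0.0066). bowl, a zinc-finger factor of the odd-skipped family, was 9.002-fold higher, at 12.3 ± 1.23 FPKM against 1.36 ± 0.434 in Ctrl (adjusted p = 9.8e-05). Dll, the homeobox gene Distal-less of limb development, rose from 1.12 ± 0.616 to 8.14 ± 0.697 FPKM, 7.26-fold (adjusted p = 6.2e-04). Lim3, a LIM homeobox factor of motor neurons, was 10.6-fold lower, at 0.649 ± 0.0482 FPKM against 6.84 ± 2.99 in Ctrl (adjusted p = 0.0015). lab, the labial Hox gene, known for its role in the midgut, fell from 13.6 ± 5.25 to 4.67 ± 0.279 FPKM, 2.91-fold (adjusted p = 0.015). For lab its call was lost without ttk-RNAi replicate 1, 2 or 3 (adjusted p from 0.054 to 0.06). odd, the odd-skipped zinc-finger gene, was 4.33-fold lower, at 0.516 ± 0.0804 FPKM against 2.23 ± 0.311 in Ctrl (adjusted p = 3.4e-04).

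sob, a further member of that family, fell from 2.22 ± 0.409 to 0.6199 ± 0.131 FPKM, 3.57-fold (adjusted p = 0.0011). Of the 16 tested genes of a wider progenitor list, which overlaps the markers above, 5 (31.2%) rose and 2 (12.5%) fell, with a median log2 change of 0.12. Both shares were near those of all tested genes, 30.2% and 11.6%. The counts were 4 and 5 at a common median, and 5 and 7 without Ctrl replicate 2 and 3 and 2 without ttk-RNAi replicate 1, 2 or 3. GATAe, a GATA factor of the gut, fell from 27.5 ± 8.98 to 4.69 ± 0.331 FPKM, 5.87-fold (adjusted p = 6.1e-04).

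The guidance receptor gene robo3 was at 0.0211, 0 and 0.0457 FPKM in Ctrl and 22.99, 23.5 and 22.5 in the libraries labelled ttk-RNAi. Sema2b, which encodes a secreted semaphorin, was at 3.66, 1.31 and 3.16 FPKM in Ctrl and 61.9, 58.5 and 55.8 in the libraries labelled ttk-RNAi. In both, every ttk-RNAi library was above every Ctrl library. Sema2b was 21.7-fold higher (adjusted p = 5.1e-05) and robo3 1033-fold higher (adjusted p = 8.3e-06), and for robo3 the fold was 689 without Ctrl replicate 2 and 2181 without Ctrl replicate 3. Of the 44 tested genes of axon guidance and synaptic adhesion, 28 (63.6%) rose, including 9 with a Ctrl mean under 1 FPKM, and 4 (9.09%) fell, with a median log2 change of 0.97. At a common median 25 rose and 6 fell, and the counts were 29 and 8 without Ctrl replicate 2. Ten-a, a teneurin adhesion molecule, rose from 0.356 ± 0.0495 to 15.9 ± 0.557 FPKM, 44.8-fold (adjusted p = 8.5e-06). dpr11, a cell-surface immunoglobulin gene of the dpr family, was 472-fold higher, at 10.97 ± 0.663 FPKM against 0.0232 ± 0.01297 in Ctrl (adjusted p = 8.3e-06). unc-5, a Netrin receptor, rose from 0.159 ± 0.103 to 4.67 ± 1.36 FPKM, 29.4-fold (adjusted p = 1.1e-04). Fas3, an adhesion gene, was 6.56-fold higher, at 27.2 ± 1.27 FPKM against 4.16 ± 2.03 in Ctrl (adjusted p = 5.2e-04). Nrg, the neuroglian adhesion gene, rose from 68.8 ± 26.3 to 249 ± 13.4 FPKM, 3.63-fold (adjusted p = 0.0025). The members that fell were these. dpr1, of the same family, was 7.11-fold lower, at 0.841 ± 0.0426 FPKM against 5.98 ± 2.02 in Ctrl (adjusted p = 5.7e-04). Sema2a, a secreted semaphorin, fell from 30.1 ± 14.9 to 7.26 ± 0.501 FPKM, 4.14-fold (adjusted p = 0.0098). Dscam1, a homophilic receptor of neurites, was 2.38-fold lower, at 2.61 ± 0.788 FPKM against 6.195 ± 2.14 in Ctrl (adjusted p = 0.036). For Dscam1 its call was lost without Ctrl replicate 1 or 3 or ttk-RNAi replicate 1, 2 or 3 (adjusted p from 0.065 to 0.15).

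dpr21, also a dpr gene, fell from 2 ± 0.541 to 0.811 ± 0.0859 FPKM, 2.47-fold (adjusted p = 0.0097).

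Of the 20 tested genes of the neuronal cytoskeleton, 14 (70%) rose, including 1 with a Ctrl mean under 1 FPKM, and 0 fell, with a median log2 change of 0.95. Scaling to a common median gave 9 and 1, and the counts were 16 and 1 without Ctrl replicate 2 and 9 and 0 without ttk-RNAi replicate 3. The list is not only neuronal. It also holds general cytoskeleton genes such as Act5C, alphaTub84B, Khc and Dhc64C, which rose, and the RNA-binding gene elav, which did not pass. Appl, the amyloid precursor protein-like gene, rose from 17.8 ± 7.55 to 132 ± 8.899 FPKM, 7.39-fold (adjusted p = 2.8e-04). Act42A, an actin gene, was 4.67-fold higher, at 289 ± 5.99 FPKM against 61.9 ± 22.4 in Ctrl (adjusted p = 9.5e-04). shot, a spectraplakin that links actin and microtubules, rose from 22.8 ± 10.6 to 71.03 ± 2.502 FPKM, 3.11-fold (adjusted p = 0.0072). futsch, a microtubule-associated protein of axons, was 3.37-fold higher, at 4.79 ± 0.141 FPKM against 1.42 ± 0.731 in Ctrl (adjusted p = 0.0048). betaTub85D, the beta-tubulin known from the testis, rose from 0.0437 ± 0.0227 to 3.17 ± 0.178 FPKM, 72.5-fold (adjusted p = 1.0e-05, 95% counting interval of the fold 36.8 to 168).

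Of the 24 tested genes of synaptic vesicle release, 10 (41.7%) rose, including 2 with a Ctrl mean under 1 FPKM, and 2 (8.33%) fell, with a median log2 change of 0.66. After scaling to a common median 8 rose and 3 fell, and the counts were 13 and 3 without Ctrl replicate 2 and 6 and 2 without ttk-RNAi replicate 1 or 3. Syt4, a synaptotagmin, rose from 1.77 ± 1.47 to 46.1 ± 1.53 FPKM, 26.01-fold (adjusted p = 1.0e-04). For Syt4 the fold was 49.7 without Ctrl replicate 3. Frq1, a frequenin calcium sensor, was 18.01-fold higher, at 34.6 ± 1.52 FPKM against 1.92 ± 0.2498 in Ctrl (adjusted p = 1.2e-05). Snap25, a SNARE of vesicle fusion, rose from 0.453 ± 0.2005 to 4.51 ± 0.154 FPKM, 9.96-fold (adjusted p = 6.3e-05). Cadps, a protein that primes dense-core vesicles, was 5.75-fold higher, at 13.2 ± 1.35 FPKM against 2.304 ± 0.583 in Ctrl (adjusted p = 2.2e-04). Csp, a chaperone of synaptic vesicles, rose from 37.3 ± 16.6 to 99.9 ± 8.91 FPKM, 2.68-fold (adjusted p = 0.016). For Csp its call was lost without ttk-RNAi replicate 1, 2 or 3 (adjusted p from 0.051 to 0.063). Sytbeta, another synaptotagmin, was 4.93-fold lower, at 6.31 ± 0.513 FPKM against 31.1 ± 16.8 in Ctrl (adjusted p = 0.0045). Syt1, the calcium sensor of vesicle release, fell from 7.66 ± 2.21 to 1.21 ± 0.187 FPKM, 6.35-fold (adjusted p = 6.7e-04).

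Of the 23 tested genes of neuronal excitability channels, 7 (30.4%) rose, including 5 with a Ctrl mean under 1 FPKM, and 7 (30.4%) fell, with a median log2 change of -0.06. The share that rose was near that of all tested genes, 30.2%, and the share that fell was above theirs, 11.6%. With columns at a common median the counts were 7 and 7, and they were 8 and 9 without Ctrl replicate 2. nAChRbeta1, a nicotinic acetylcholine receptor subunit, rose from 0.255 ± 0.0854 to 10.3 ± 1.099 FPKM, 40.5-fold (adjusted p = 1.1e-05). nAChRalpha4, also a nicotinic receptor subunit, was 14.3-fold higher, at 7.72 ± 0.433 FPKM against 0.5398 ± 0.318 in Ctrl (adjusted p = 5.6e-05). For nAChRalpha4 the fold was 21.7 without Ctrl replicate 3. Shaw, a potassium channel, rose from 1.68 ± 0.953 to 20.4 ± 2.26 FPKM, 12.1-fold (adjusted p = 1.8e-04). na, the sodium leak channel narrow abdomen, was 16.4-fold higher, at 2.46 ± 0.0832 FPKM against 0.1496 ± 0.0905 in Ctrl (adjusted p = 2.8e-05). For na the fold was 25.1 without Ctrl replicate 2. tipE, an auxiliary subunit of the voltage-gated sodium channel, rose from 1.68 ± 0.727 to 10.2 ± 0.4198 FPKM, 6.06-fold (adjusted p = 5.9e-04), with 19% of its exon bases shared with other genes and its reads therefore uncertain. Ih, a channel gated by hyperpolarization, was 11.01-fold lower, at 4.06 ± 0.1603 FPKM against 44.7 ± 10.4 in Ctrl (adjusted p = 5.6e-05). Ca-alpha1D, a calcium channel subunit, fell from 5.84 ± 2.22 to 0.598 ± 0.0402 FPKM, 9.76-fold (adjusted p = 9.3e-04). Ca-alpha1T, a calcium channel subunit of the T type, was 5.53-fold lower, at 0.827 ± 0.0479 FPKM against 4.57 ± 2.301 in Ctrl (adjusted p = 0.0046).

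Elk, a voltage-gated potassium channel, fell from 3.16 ± 2.05 to 0.115 ± 0.04603 FPKM, 27.4-fold (adjusted p = 0.0052). For Elk the fold was 17.99 without Ctrl replicate 3. slo, a potassium channel gated by calcium, was 3.11-fold lower, at 1.92 ± 0.161 FPKM against 5.98 ± 2.15 in Ctrl (adjusted p = 0.0084). Of the 17 tested RNA-binding proteins of the nervous system, 4 (23.5%) rose, including 1 with a Ctrl mean under 1 FPKM, and 4 (23.5%) fell, with a median log2 change of -0.24. Columns scaled to a common median gave 4 and 6, and the counts were 6 and 8 without Ctrl replicate 2 and 3 and 2 without ttk-RNAi replicate 2 or 3. shep, an RNA-binding protein, was 3.42-fold higher, at 128 ± 3.43 FPKM against 37.5 ± 12.99 in Ctrl (adjusted p = 0.0016). fne, an RNA-binding protein of the ELAV family, rose from 1.29 ± 0.0648 to 5.26 ± 0.526 FPKM, 4.08-fold (adjusted p = 2.9e-04). brat, a translational repressor that limits neuroblast renewal, was 2.69-fold lower, at 11.9 ± 1.74 FPKM against 32.01 ± 8.86 in Ctrl (adjusted p = 0.0067). pum, a translational repressor, fell from 25.3 ± 3.19 to 12.8 ± 1.15 FPKM, 1.97-fold (adjusted p = 0.008). For pum its call was lost without ttk-RNAi replicate 2 or 3 (adjusted p from 0.052 to 0.053). ps, the RNA-binding protein pasilla, was 2.07-fold lower, at 72.6 ± 1.39 FPKM against 151 ± 13.1 in Ctrl (adjusted p = 0.0035). The neuronal gene elav was at 8.98, 4.51 and 7.43 FPKM in Ctrl and 8.35, 7.96 and 8.59 in the libraries labelled ttk-RNAi, with overlapping groups (adjusted p = 0.44) and 34.2% of its exon bases shared with other genes.

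**Figure D3:**
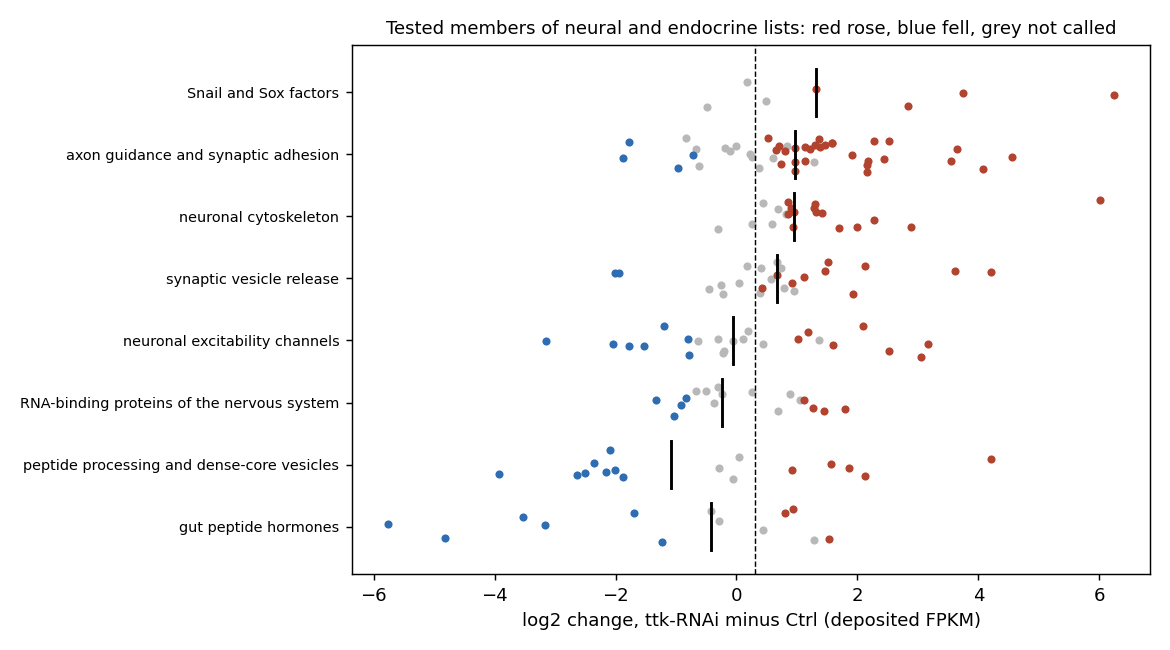
Each point is the log2 change of 1 tested member of a neural or endocrine list, red where it rose, blue where it fell and grey where it did not pass, with a black bar at the list's median and a dashed line at the median of all tested genes, 0.30. The median is 0.97 for guidance and adhesion, 0.95 for the cytoskeleton and -1.09 for peptide processing. The cytoskeleton list also holds general cytoskeleton genes.

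Peptide hormones of enteroendocrine cells differed in direction, and the most abundant fell. Tk, which encodes tachykinin, was at 581, 1354 and 2748 FPKM in Ctrl and 106, 103 and 123 in the libraries labelled ttk-RNAi. AstC, which encodes allatostatin C, was at 2604, 1355 and 3715 FPKM in Ctrl and 294, 212 and 288 in the libraries labelled ttk-RNAi. In both, all Ctrl libraries were above all ttk-RNAi libraries. Tk was 14.1-fold lower (adjusted p = 0.0017), and the fold was 8.74 without Ctrl replicate 3. AstC was 9.67-fold lower (adjusted p = 6.7e-04). Of the 13 tested gut peptide hormones, 3 (23.1%) rose, including 1 with a Ctrl mean under 1 FPKM, and 6 (46.2%) fell, with a median log2 change of -0.42. These counts became 2 and 6 at a common median and 4 and 6 without Ctrl replicate 2. CCAP, the crustacean cardioactive peptide gene, was 12.6-fold lower, at 0.267 ± 0.0605 FPKM against 3.36 ± 1.77 in Ctrl (adjusted p = 0.0041). Burs, a subunit gene of the hormone bursicon, rose from 0.385 ± 0.203 to 1.65 ± 0.344 FPKM, 4.28-fold (adjusted p = 0.0024). CCHa1, a peptide hormone gene, was 2.998-fold higher, at 44.3 ± 6.89 FPKM against 14.8 ± 2.32 in Ctrl (adjusted p = 0.0014). AstA, the allatostatin A gene, rose from 11.8 ± 2.79 to 20.9 ± 1.76 FPKM, 1.78-fold (adjusted p = 0.026). For AstA its call was lost without Ctrl replicate 3 or ttk-RNAi replicate 1, 2 or 3 (adjusted p from 0.052 to 0.12). With columns scaled to a common median AstA did not pass (adjusted p = 0.18).

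Of the 16 tested genes of peptide processing and dense-core vesicles, 5 (31.2%) rose and 8 (50%) fell, with a median log2 change of -1.09. Once scaled to a common median 4 rose and 8 fell, and the counts were 5 and 9 without Ctrl replicate 2. amon, the prohormone convertase gene, fell from 58.5 ± 13.1 to 2.86 ± 0.373 FPKM, 20.4-fold (adjusted p = 2.1e-05). 7B2, a helper of the prohormone convertase, was 9.06-fold lower, at 36.2 ± 1.88 FPKM against 328 ± 319 in Ctrl (adjusted p = 0.018). For 7B2 its call was lost without Ctrl replicate 3 or ttk-RNAi replicate 1, 2 or 3 (adjusted p from 0.052 to 0.063) and the fold was 4.06 without Ctrl replicate 2. IA-2, a dense-core vesicle protein, fell from 332 ± 206 to 64.8 ± 5.18 FPKM, 5.12-fold (adjusted p = 0.018). For IA-2 its call was lost without Ctrl replicate 3 or ttk-RNAi replicate 1 or 2 (adjusted p from 0.06 to 0.069). svr, a carboxypeptidase, was 5.64-fold lower, at 19.9 ± 1.83 FPKM against 112 ± 49.7 in Ctrl (adjusted p = 0.001). Pal2, an enzyme of peptide amidation, fell from 10.8 ± 4.75 to 0.935 ± 0.182 FPKM, 11.5-fold (adjusted p = 0.0012), with 25.7% of its exon bases shared with other genes and its reads therefore uncertain. Rph, rabphilin, a Rab effector of vesicles, was 7.89-fold lower, at 1.15 ± 0.123 FPKM against 9.104 ± 3.79 in Ctrl (adjusted p = 0.0013). Rab2, a small GTPase of dense-core vesicle formation, rose from 122 ± 34.8 to 435 ± 36.8 FPKM, 3.57-fold (adjusted p = 0.0012). Fur1, a furin protease, was 3.57-fold higher, at 8.67 ± 0.686 FPKM against 2.43 ± 1.17 in Ctrl (adjusted p = 0.0053).

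Of the 6 tested receptors of neuropeptides and hormones, 2 (33.3%) rose, both with a Ctrl mean under 1 FPKM, and 3 (50%) fell, with a median log2 change of -1.32. The counts were 2 and 3 at a common median, and 2 and 3 without Ctrl replicate 2. NPFR, the receptor of NPF, was 9.53-fold lower, at 1.12 ± 0.0713 FPKM against 10.7 ± 1.88 in Ctrl (adjusted p = 6.6e-05). CCHa1-R, the receptor of CCHa1, fell from 12.7 ± 4.32 to 1.36 ± 0.206 FPKM, 9.298-fold (adjusted p = 2.7e-04). AstA-R2, a receptor of allatostatin A, was 66.3-fold lower, at 0.144 ± 0.0187 FPKM against 9.55 ± 5.68 in Ctrl (adjusted p = 0.0015). The summed enteroendocrine markers, given above, share NPF, Tk, AstC, amon and IA-2 with the hormone and processing lists. Their fall is therefore not a separate observation.

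Of the 11 tested proneural and enteroendocrine fate factors, 1 (9.09%) rose and 2 (18.2%) fell, with a median log2 change of -0.24. At a common median 0 rose and 5 fell, and the counts were 2 and 6 without Ctrl replicate 2, 2 and 2 without Ctrl replicate 3 and 0 and 2 without ttk-RNAi replicate 1, 2 or 3. The fate factor gene pros was at 6.76, 8.704 and 11.2 FPKM in Ctrl and 8.41, 7.57 and 8.25 in the libraries labelled ttk-RNAi, with overlapping groups (adjusted p = 0.75).

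The receptor gene N was at 70.9, 41.9 and 76.3 FPKM in Ctrl and 27.98, 32.7 and 29.5 in the libraries labelled ttk-RNAi. The groups did not overlap, and the mean was 2.098-fold lower in ttk-RNAi (adjusted p = 0.021), but its call was lost without Ctrl replicate 1 or 3 or ttk-RNAi replicate 1, 2 or 3 (adjusted p from 0.054 to 0.088). Delta, a ligand of Notch, was 16.99-fold lower, at 4.41 ± 0.576 FPKM against 74.9 ± 76.8 in Ctrl (adjusted p = 0.013). For Delta the fold was 7.17 without Ctrl replicate 1. Of the 16 tested genes of the Notch pathway, 1 (6.25%) rose and 2 (12.5%) fell, with a median log2 change of 0.11. Scaling to a common median gave 0 and 4, and the counts were 3 and 6 without Ctrl replicate 2, 2 and 1 without Ctrl replicate 1, 1 and 1 without Ctrl replicate 3 and 0 and 1 without ttk-RNAi replicate 1, 2 or 3. Genes of the E(spl) complex, classical targets of Notch that lie together on chromosome 3R (BDGP6.54 3R:25997621-26049911), differed in direction. E(spl)m3-HLH, a bHLH repressor gene, was at 1122, 345 and 659 FPKM in Ctrl and 12.8, 13.7 and 18.8 in the libraries labelled ttk-RNAi. E(spl)malpha-BFM, of the Bearded family, was at 2823, 2887 and 1715 FPKM in Ctrl and 76.01, 84.5 and 92.6 in the libraries labelled ttk-RNAi. E(spl)mgamma-HLH, another bHLH repressor and a neuroblast gene, was at 5.29, 6.99 and 3.92 FPKM in Ctrl and 133, 129 and 121 in the libraries labelled ttk-RNAi. The first of these were lower in every ttk-RNAi library, 46.97-fold (adjusted p = 8.1e-05) and 29.3-fold (adjusted p = 1.6e-05), and E(spl)mgamma-HLH was higher in every one, 23.6-fold (adjusted p = 1.5e-05).

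Of the 9 tested genes of the E(spl) complex and Bearded family, 2 (22.2%) rose, including 1 with a Ctrl mean under 1 FPKM, and 4 (44.4%) fell, with a median log2 change of -0.67. After scaling to a common median 2 rose and 4 fell, and the counts were 3 and 4 without Ctrl replicate 2. E(spl)mbeta-HLH, a bHLH repressor, fell from 662 ± 329 to 51.1 ± 3.52 FPKM, 12.97-fold (adjusted p = 1.9e-04). lncRNA:CR45039, a long non-coding RNA beside it, was 30.1-fold lower, at 0.234 ± 0.104 FPKM against 7.03 ± 3.72 in Ctrl (adjusted p = 5.6e-04). E(spl)mdelta-HLH, a bHLH repressor, rose from 0.582 ± 0.0903 to 1.39 ± 0.261 FPKM, 2.39-fold (adjusted p = 0.0053). E(spl)m2-BFM, of the Bearded family, was 3.11-fold lower, at 0.579 ± 0.2799 FPKM against 1.8 ± 0.332 in Ctrl (adjusted p = 0.0055). E(spl)m7-HLH was at 25.7, 21.8 and 37.7 FPKM in Ctrl and 30.1, 22.6 and 29.1 in the libraries labelled ttk-RNAi (adjusted p = 0.93), with overlapping groups. E(spl)m8-HLH, which was named after its values were seen, was at 10.3, 19.97 and 9.22 FPKM in Ctrl and 18.9, 18.7 and 20.5 in the libraries labelled ttk-RNAi (adjusted p = 0.15), and it passed the test without Ctrl replicate 2 (adjusted p = 7.0e-04). E(spl)m6-BFM was at 5.204, 9.099 and 11.1 FPKM in Ctrl and 4.61, 4.58 and 5.08 in the libraries labelled ttk-RNAi (adjusted p = 0.091), and it passed the test without Ctrl replicate 1 (adjusted p = 0.0077).

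Activators of apoptosis that lie in one stretch of chromosome 3L also differed in direction. The gene rpr (FBgn0011706, BDGP6.54 3L:18397535-18398435) was at 1.56, 1.899 and 2.74 FPKM in Ctrl and 88.7, 132 and 121 in the libraries labelled ttk-RNAi. The gene skl (FBgn0036786, BDGP6.54 3L:18438561-18439942) was at 0.717, 0.115 and 0.4905 FPKM in Ctrl and 70.6, 79.8 and 68.6 in the libraries labelled ttk-RNAi. Both encode antagonists of the apoptosis inhibitor Diap1, and every ttk-RNAi library lay above every Ctrl library. The mean of rpr was 55.1-fold higher (adjusted p = 1.0e-05) and that of skl 166-fold higher (adjusted p = 8.3e-06). grim, an activator of apoptosis, rose from 0.227 ± 0.0503 to 18.03 ± 1.79 FPKM, 79.5-fold (adjusted p = 8.5e-06), with 75.9% of its exon bases shared with other genes and its reads therefore uncertain. hid, also an activator of apoptosis, was 6.003-fold lower, at 0.7498 ± 0.118 FPKM against 4.501 ± 1.45 in Ctrl (adjusted p = 0.0011). Of the 16 tested cell death genes, 5 (31.2%) rose, including 2 with a Ctrl mean under 1 FPKM, and 2 (12.5%) fell, with a median log2 change of 0.53. Both shares were near those of all tested genes, 30.2% and 11.6%. With columns at a common median the counts were 5 and 4, and they were 6 and 4 without Ctrl replicate 2. Corp, a regulator of p53, was 24.2-fold higher, at 61.4 ± 3.11 FPKM against 2.54 ± 0.442 in Ctrl (adjusted p = 9.7e-06). p53, the tumour suppressor of the DNA damage response, rose from 4.91 ± 2.59 to 35.9 ± 2.77 FPKM, 7.31-fold (adjusted p = 0.0011), with 38% of its exon bases shared with other genes and its reads therefore uncertain. Buffy, a protein of the Bcl-2 family, was 6.96-fold lower, at 1.07 ± 0.217 FPKM against 7.43 ± 3.82 in Ctrl (adjusted p = 0.007).

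**Figure D4:**
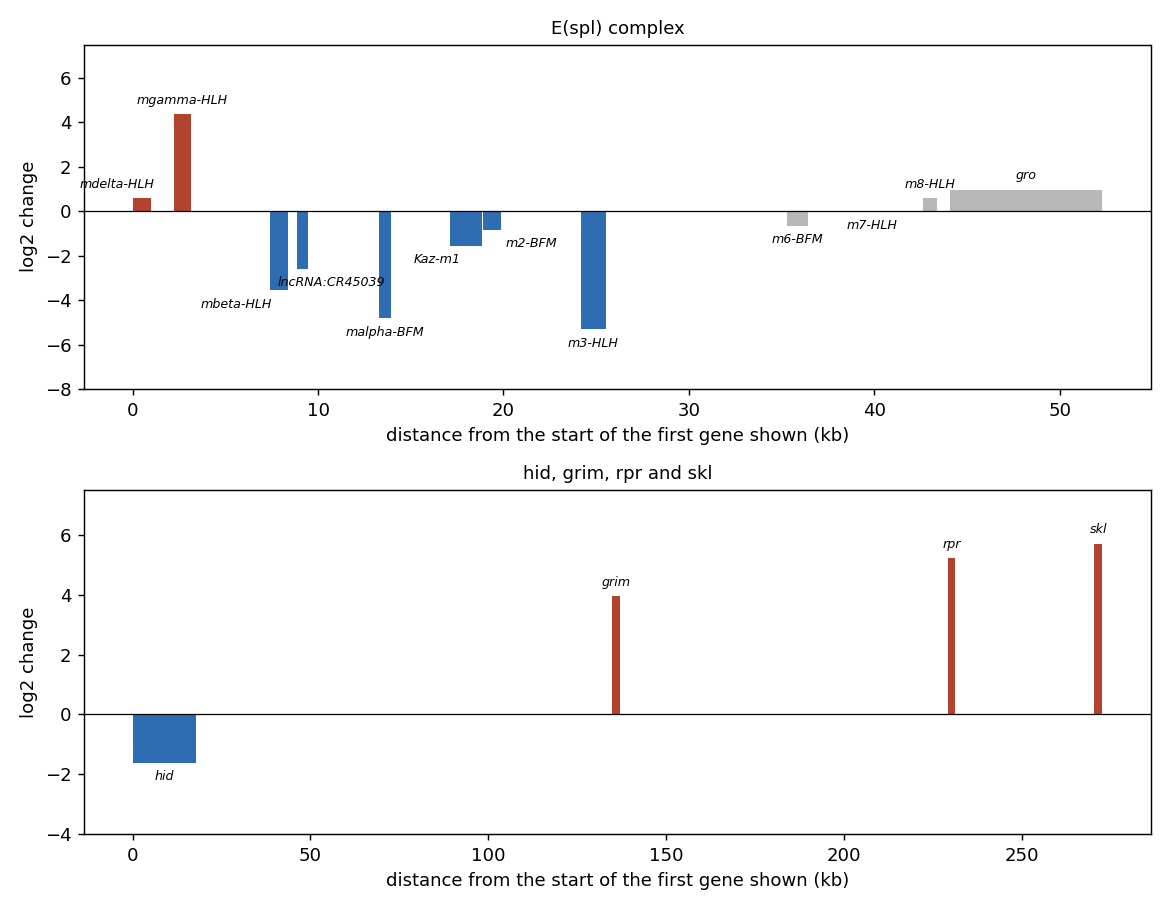
Log2 change in ttk-RNAi against Ctrl of genes of the E(spl) complex (top) and of hid, grim, rpr and skl (bottom). Each is drawn at its place in kilobases from the start of the first gene. Bars have a minimum width, so grim, rpr and skl are drawn wider than their length. Genes are red where they rose, blue where they fell and grey where they did not pass. Kaz-m1 and gro were added for their position, and E(spl)m7-HLH, at -0.03, is too close to 0 to be seen.

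Of the listed cell cycle genes many rose, and none fell in the comparison of all 6 libraries. Their shares below stand beside 30.2% that rose and 11.6% that fell of all tested genes. RnrS, a subunit of ribonucleotide reductase, was at 29.8, 19.2 and 14.8 FPKM in Ctrl and 141, 116 and 116 in the libraries labelled ttk-RNAi. All ttk-RNAi libraries lay above all Ctrl libraries (5.85-fold, adjusted p = 4.4e-04). RnrL, the other ribonucleotide reductase subunit, rose from 4.297 ± 2.15 to 18.2 ± 1.22 FPKM, 4.24-fold (adjusted p = 0.0041). Of the 27 tested genes of DNA replication and entry into S phase, 15 (55.6%) rose, including 3 with a Ctrl mean under 1 FPKM, and 0 fell, with a median log2 change of 0.74. Columns scaled to a common median gave 11 and 0, and the counts were 18 and 1 without Ctrl replicate 2 and 9 and 0 without ttk-RNAi replicate 1 or 2. CycE, a cyclin of entry into S phase, rose from 0.653 ± 0.375 to 8.79 ± 0.661 FPKM, 13.5-fold (adjusted p = 9.6e-05). Orc6, a subunit of the origin recognition complex, was 4.76-fold higher, at 26.95 ± 1.27 FPKM against 5.67 ± 3.85 in Ctrl (adjusted p = 0.0082). Psf2, a subunit of the GINS replication complex, rose from 1.84 ± 1.29 to 8.52 ± 0.686 FPKM, 4.63-fold (adjusted p = 0.0034). For Psf2 the fold was 7.68 without Ctrl replicate 1. Of the 32 tested genes of mitosis, 16 (50%) rose, including 5 with a Ctrl mean under 1 FPKM, and 0 fell, with a median log2 change of 0.86. These counts became 14 and 0 at a common median and 17 and 0 without Ctrl replicate 2. Rises numbered 22 and 13 without Ctrl replicates 1 and 3, and 11, 12 and 13 without ttk-RNAi replicates 1, 2 and 3. stg, the Cdc25 phosphatase of entry into mitosis, rose from 26.9 ± 5.795 to 88.5 ± 8.31 FPKM, 3.296-fold (adjusted p = 9.3e-04). cid, the centromeric histone H3, was 9.05-fold higher, at 10.7 ± 1.38 FPKM against 1.19 ± 0.647 in Ctrl (adjusted p = 2.5e-04). CycB, a mitotic cyclin, rose from 1.93 ± 1.53 to 9.66 ± 0.971 FPKM, 5.01-fold (adjusted p = 0.0038). For CycB the fold was 9.24 without Ctrl replicate 1. polo, a mitotic kinase, was 3.47-fold higher, at 27.5 ± 1.29 FPKM against 7.92 ± 3.92 in Ctrl (adjusted p = 0.0048).

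tum, a protein of cytokinesis, rose from 4.398 ± 3.29 to 15.96 ± 1.54 FPKM, 3.63-fold (adjusted p = 0.011). For tum its call was lost without ttk-RNAi replicate 1 (adjusted p = 0.05) and the fold was 6.26 without Ctrl replicate 1.

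Of the 26 tested genes of EGFR and MAPK signalling, 7 (26.9%) rose, including 2 with a Ctrl mean under 1 FPKM, and 5 (19.2%) fell, with a median log2 change of 0.23. Once scaled to a common median 7 rose and 9 fell, and the counts were 7 and 11 without Ctrl replicate 2, 7 and 2 without Ctrl replicate 1, 8 and 3 without Ctrl replicate 3, 7 and 1 without ttk-RNAi replicate 1 and 6 and 1 without ttk-RNAi replicate 2 or 3. kek1, a feedback inhibitor of the receptor, rose from 1.24 ± 0.503 to 14.9 ± 1.82 FPKM, 12-fold (adjusted p = 8.1e-05). grk, an EGFR ligand, was 8.76-fold higher, at 21.9 ± 1.19 FPKM against 2.502 ± 0.864 in Ctrl (adjusted p = 1.3e-04), with 12.3% of its exon bases shared with other genes and its reads therefore uncertain. rho, a protease that releases EGFR ligands, rose from 42.2 ± 19.4 to 147 ± 10.5 FPKM, 3.49-fold (adjusted p = 0.0035). stet, another rhomboid protease, was 16.9-fold higher, at 5.12 ± 0.986 FPKM against 0.302 ± 0.133 in Ctrl (adjusted p = 6.1e-05). ru, the rhomboid protease roughoid, rose from 0.0771 ± 0.0296 to 2.85 ± 0.119 FPKM, 36.9-fold (adjusted p = 1.1e-05). Mkp3, a MAP kinase phosphatase, was 4.92-fold lower, at 17.7 ± 1.87 FPKM against 87.1 ± 34.4 in Ctrl (adjusted p = 0.0022). S, the chaperone Star of EGFR ligands, fell from 20.9 ± 3.49 to 10.6 ± 0.539 FPKM, 1.97-fold (adjusted p = 0.0096). For S its call was lost without ttk-RNAi replicate 1, 2 or 3 (adjusted p from 0.0501 to 0.056). edl, an antagonist of ETS factors, was 1.89-fold lower, at 22.2 ± 1.38 FPKM against 42 ± 16.1 in Ctrl (adjusted p = 0.049). For edl its call was lost without Ctrl replicate 1 or ttk-RNAi replicate 1, 2 or 3 (adjusted p from 0.054 to 0.15).

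Sos, an exchange factor of Ras, fell from 3.06 ± 1.31 to 1.104 ± 0.111 FPKM, 2.77-fold (adjusted p = 0.03). For Sos its call was lost without Ctrl replicate 1 or 3 or ttk-RNAi replicate 1, 2 or 3 (adjusted p from 0.073 to 0.1).

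Of the 12 tested genes of JAK/STAT signalling, 2 (16.7%) rose, including 1 with a Ctrl mean under 1 FPKM, and 3 (25%) fell, with a median log2 change of -0.41. The counts were 2 and 7 at a common median, and 3 and 7 without Ctrl replicate 2 and 2 and 1 without ttk-RNAi replicate 1 or 3. upd3, a cytokine gene, rose from 77.5 ± 29.4 to 302 ± 31.8 FPKM, 3.897-fold (adjusted p = 0.0026). dome, the cytokine receptor, was 1.85-fold lower, at 9.22 ± 0.464 FPKM against 17.05 ± 1.36 in Ctrl (adjusted p = 0.0094). For dome its call was lost without ttk-RNAi replicate 1 or 3 (adjusted p from 0.058 to 0.071). Socs36E, a feedback inhibitor, fell from 315 ± 141 to 131 ± 16.8 FPKM, 2.42-fold (adjusted p = 0.036). For Socs36E its call was lost without Ctrl replicate 1 or 3 or ttk-RNAi replicate 1, 2 or 3 (adjusted p from 0.075 to 0.12). vir-1, a gene known as a marker of viral infection, was 13.9-fold higher, at 1.75 ± 0.253 FPKM against 0.126 ± 0.0366 in Ctrl (adjusted p = 6.3e-05). Of the 13 tested genes of the Hippo pathway, 1 (7.69%) rose, with a Ctrl mean under 1 FPKM, and 2 (15.4%) fell, with a median log2 change of -0.03. At a common median 1 rose and 5 fell, and the counts were 4 and 6 without Ctrl replicate 2, 2 and 2 without Ctrl replicate 1 and 1 and 1 without ttk-RNAi replicate 1, 2 or 3. wts, the kinase that restrains Yorkie, was 2.73-fold lower, at 2.51 ± 0.177 FPKM against 6.84 ± 0.9096 in Ctrl (adjusted p = 0.0019). yki, the effector of the pathway, fell from 23.8 ± 1.92 to 14.5 ± 0.798 FPKM, 1.64-fold (adjusted p = 0.02). For yki its call was lost without ttk-RNAi replicate 1, 2 or 3 (adjusted p from 0.079 to 0.11).

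Of the 26 tested genes of the Imd and Toll pathways, 7 (26.9%) rose, including 1 with a Ctrl mean under 1 FPKM, and 6 (23.1%) fell, with a median log2 change of 0.04. Scaling to a common median gave 4 and 8, and the counts were 7 and 9 without Ctrl replicate 2, 4 and 3 without ttk-RNAi replicate 1, 2 and 4 without ttk-RNAi replicate 2 and 2 and 3 without ttk-RNAi replicate 3. Rel, the NF-kappaB factor of the Imd pathway, fell from 66.1 ± 18.7 to 26.8 ± 1.75 FPKM, 2.47-fold (adjusted p = 0.0081). Tl, the Toll receptor, was 49.5-fold lower, at 0.0669 ± 0.0205 FPKM against 3.31 ± 1.75 in Ctrl (adjusted p = 9.7e-04). spz, the ligand of Toll, fell from 5.304 ± 2.18 to 1.52 ± 0.158 FPKM, 3.49-fold (adjusted p = 0.0066). tub, an adaptor of Toll, was 3.44-fold lower, at 1.096 ± 0.0928 FPKM against 3.77 ± 2.43 in Ctrl (adjusted p = 0.0499). For tub its call was lost without Ctrl replicate 1 or 3 or ttk-RNAi replicate 1, 2 or 3 (adjusted p from 0.069 to 0.14) and the fold was 2.27 without Ctrl replicate 1.

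Of the 20 tested genes of Wnt, Hedgehog and BMP signalling, 5 (25%) rose, including 2 with a Ctrl mean under 1 FPKM, and 3 (15%) fell, with a median log2 change of 0.19. After scaling to a common median 4 rose and 4 fell, and the counts were 7 and 8 without Ctrl replicate 2, 3 and 3 without Ctrl replicate 3 and 3 and 2 without ttk-RNAi replicate 1, 2 or 3. Actbeta, an activin ligand, was 9.14-fold higher, at 16.3 ± 3.03 FPKM against 1.78 ± 1.03 in Ctrl (adjusted p = 5.0e-04). Of the 12 tested genes of insulin and TOR signalling, 2 (16.7%) rose and 3 (25%) fell, with a median log2 change of 0.22. With columns at a common median the counts were 2 and 5, and they were 2 and 4 without Ctrl replicate 2 and 1 and 3 without ttk-RNAi replicate 1 or 3. Thor, the translation inhibitor 4E-BP, was 2.67-fold lower, at 134 ± 10.6 FPKM against 357 ± 35.2 in Ctrl (adjusted p = 0.0011).

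Of the 11 tested genes of secreted immune factors, 4 (36.4%) rose, including 3 with a Ctrl mean under 1 FPKM, and 2 (18.2%) fell, with a median log2 change of 0.39. Columns scaled to a common median gave 4 and 2, and the counts were 4 and 2 without Ctrl replicate 2. Besides Listericin, DptA was among those that rose. DptA, the antimicrobial peptide Diptericin A, was 77.6-fold higher, at 2.97 ± 1.77 FPKM against 0.0382 ± 0.0334 in Ctrl (adjusted p = 0.002, 95% counting interval of the fold 21.5 to 641). For DptA the fold was 51.7 without Ctrl replicate 2 and 51.4 without ttk-RNAi replicate 3. Of the 13 tested genes of Idgf and chitin proteins, 9 (69.2%) rose, all 9 with a Ctrl mean under 1 FPKM, and 2 (15.4%) fell, with a median log2 change of 1.35. These counts became 9 and 2 at a common median and 10 and 2 without Ctrl replicate 2 and 9 and 1 without ttk-RNAi replicate 1, 2 or 3. verm, a chitin deacetylase, was 161-fold higher, at 10.4 ± 0.499 FPKM against 0.0644 ± 0.02 in Ctrl (adjusted p = 8.3e-06).

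Of the 29 tested digestive enzymes, 3 (10.3%) rose, all 3 with a Ctrl mean under 1 FPKM, and 10 (34.5%) fell, with a median log2 change of -1.57. Once scaled to a common median 2 rose and 13 fell, and the counts were 4 and 15 without Ctrl replicate 2 and 2 and 5 without ttk-RNAi replicate 1 or 2. Jon65Aiv, a protease gene, was 6.58-fold lower, at 16.6 ± 6.61 FPKM against 109.6 ± 98.6 in Ctrl (adjusted p = 0.017). For Jon65Aiv its call was lost without ttk-RNAi replicate 1 or 2 (adjusted p from 0.065 to 0.066) and the fold was 3.17 without Ctrl replicate 1. Jon99Ciii, also a protease gene, fell from 42.95 ± 62.6 to 0.86 ± 0.669 FPKM, 49.9-fold (adjusted p = 0.04). For Jon99Ciii its call was lost without ttk-RNAi replicate 1, 2 or 3 (adjusted p from 0.071 to 0.12) and the fold was 7.99 without Ctrl replicate 1 and 88.9 without ttk-RNAi replicate 3. Genes of the Jon family are near copies of each other, so their reads are uncertain. Of the 30 tested cytochrome P450 genes, 5 (16.7%) rose, including 4 with a Ctrl mean under 1 FPKM, and 13 (43.3%) fell, with a median log2 change of -0.36. The counts were 4 and 14 at a common median, and 5 and 14 without Ctrl replicate 2. Cyp9f2, a cytochrome P450 gene, fell from 40.5 ± 4.298 to 4.88 ± 0.332 FPKM, 8.297-fold (adjusted p = 3.4e-05). Cyp28d1, a cytochrome P450 gene, was 13.5-fold lower, at 1.06 ± 0.254 FPKM against 14.3 ± 7.11 in Ctrl (adjusted p = 5.3e-04). Of the 12 tested genes of iron, copper and zinc, 1 (8.33%) rose, with a Ctrl mean under 1 FPKM, and 4 (33.3%) fell, with a median log2 change of -0.31. At a common median 1 rose and 5 fell, and the counts were 2 and 7 without Ctrl replicate 2, 2 and 3 without Ctrl replicate 3 and 1 and 2 without ttk-RNAi replicate 1 or 2. MtnA, a metallothionein gene, was 9.98-fold lower, at 7.76 ± 1.07 FPKM against 77.4 ± 76.6 in Ctrl (adjusted p = 0.01). For MtnA the fold was 4.28 without Ctrl replicate 2. The summed enterocyte markers, given above, overlapped between the groups, and their part in these counts was not tested.

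Of the 29 tested glutathione transferases, 9 (31%) rose, including 1 with a Ctrl mean under 1 FPKM, and 6 (20.7%) fell, with a median log2 change of 0.38. The share that rose was near the 30.2% of all tested genes. Scaling to a common median gave 5 and 8, and the counts were 12 and 8 without Ctrl replicate 2 and 5 and 6 without ttk-RNAi replicate 3. Of the 15 tested UDP-glycosyltransferases, 5 (33.3%) rose, including 1 with a Ctrl mean under 1 FPKM, and 6 (40%) fell, with a median log2 change of 0.33. After scaling to a common median 5 rose and 7 fell, and the counts were 5 and 7 without Ctrl replicate 2, 5 and 3 without Ctrl replicate 3 or ttk-RNAi replicate 1 and 4 and 3 without ttk-RNAi replicate 2 or 3.

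Of the 14 tested genes of glycolysis, 0 rose and 4 (28.6%) fell, with a median log2 change of -0.50. With columns at a common median the counts were 0 and 7, and they were 0 and 6 without Ctrl replicate 2. Hex-A, hexokinase A, was 2.599-fold lower, at 95.5 ± 4.84 FPKM against 248 ± 58.4 in Ctrl (adjusted p = 0.0031). Gapdh2, glyceraldehyde-3-phosphate dehydrogenase, fell from 118 ± 29.5 to 44.7 ± 0.595 FPKM, 2.63-fold (adjusted p = 0.0032). Tret1-1, a trehalose transporter, was 2.86-fold lower, at 10.6 ± 1.83 FPKM against 30.4 ± 7.16 in Ctrl (adjusted p = 0.0031). Of the 15 tested genes of lipid synthesis and storage, 3 (20%) rose and 6 (40%) fell, with a median log2 change of -0.15. Columns scaled to a common median gave 1 and 6, and the counts were 4 and 8 without Ctrl replicate 2 and 1 and 5 without ttk-RNAi replicate 1, 2 or 3. ATPCL, ATP citrate lyase, was 6.38-fold lower, at 9.44 ± 0.338 FPKM against 60.2 ± 5.24 in Ctrl (adjusted p = 4.6e-05). bmm, a triglyceride lipase, fell from 32.6 ± 3.49 to 11.4 ± 0.496 FPKM, 2.87-fold (adjusted p = 8.5e-04). whd, a carnitine palmitoyltransferase, was 5.61-fold lower, at 2.85 ± 0.199 FPKM against 15.98 ± 8.35 in Ctrl (adjusted p = 0.0094), with 11.1% of its exon bases shared with other genes and its reads therefore uncertain.

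Of the 16 tested genes of the TCA cycle, 5 (31.2%) rose and 2 (12.5%) fell, near the 30.2% and 11.6% of all tested genes. The median log2 change was 0.42. These counts became 3 and 3 at a common median and 7 and 3 without Ctrl replicate 2 and 3 and 2 without ttk-RNAi replicate 1, 2 or 3. Men, malic enzyme, was 5.902-fold higher, at 87 ± 7.9 FPKM against 14.7 ± 7.86 in Ctrl (adjusted p = 0.001). ScsbetaA, a subunit of succinyl-CoA synthetase, rose from 76.7 ± 29.5 to 245 ± 23.02 FPKM, 3.195-fold (adjusted p = 0.0055). PCB, pyruvate carboxylase, was 4.06-fold higher, at 11.97 ± 1.03 FPKM against 2.95 ± 0.679 in Ctrl (adjusted p = 5.7e-04). Of the 66 tested genes of oxidative phosphorylation, 11 (16.7%) rose, including 3 with a Ctrl mean under 1 FPKM, and 2 (3.03%) fell, with a median log2 change of 0.08. Once scaled to a common median 5 rose and 4 fell, and the counts were 24 and 5 without Ctrl replicate 2, 9 and 1 without Ctrl replicate 1, 6 and 5 without Ctrl replicate 3 and 5 and 0 without ttk-RNAi replicate 1, 2 or 3.

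Of the 19 tested heat shock genes, 2 (10.5%) rose and 9 (47.4%) fell, with a median log2 change of -0.48. The counts were 0 and 11 at a common median, and 4 and 11 without Ctrl replicate 2, 1 and 8 without Ctrl replicate 1 or 3 and 1 and 7 without ttk-RNAi replicate 1, 2 or 3. Members of the Hsp70 family are near copies of each other, so their reads are uncertain. Hsp26, a small heat shock protein, fell from 1585 ± 558 to 478 ± 26.6 FPKM, 3.32-fold (adjusted p = 0.0042). DnaJ-1, an Hsp40 chaperone, was 3.12-fold lower, at 95.9 ± 4.26 FPKM against 299 ± 36.01 in Ctrl (adjusted p = 5.4e-04). Hsp68, a heat shock protein of the Hsp70 family, fell from 134 ± 42.6 to 35.9 ± 2.34 FPKM, 3.73-fold (adjusted p = 0.0022). Of the 32 tested genes of the proteasome, 19 (59.4%) rose, including 1 with a Ctrl mean under 1 FPKM, and 0 fell, with a median log2 change of 0.64. At a common median 9 rose and 0 fell, and the counts were 27 and 0 without Ctrl replicate 2, 7 and 0 without ttk-RNAi replicate 1 or 2 and 6 and 0 without ttk-RNAi replicate 3. Prosbeta5, a subunit of the proteasome core, rose from 52.1 ± 4.34 to 155 ± 16.7 FPKM, 2.98-fold (adjusted p = 6.8e-04). Prosbeta4, another core subunit, was 2.91-fold higher, at 107 ± 2.65 FPKM against 36.7 ± 3.002 in Ctrl (adjusted p = 5.6e-04). Prosbeta7, a further core subunit, rose from 44.4 ± 10.4 to 125 ± 11.1 FPKM, 2.81-fold (adjusted p = 0.0023).

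Of the 69 tested mitochondrial ribosomal proteins, 18 (26.1%) rose and 2 (2.9%) fell, with a median log2 change of 0.41. Scaling to a common median gave 10 and 4, and the counts were 30 and 3 without Ctrl replicate 2, 24 and 1 without Ctrl replicate 1, 13 and 4 without Ctrl replicate 3, 8 and 1 without ttk-RNAi replicate 1 or 3 and 7 and 1 without ttk-RNAi replicate 2. mRpL21, a protein of the large mitochondrial ribosomal subunit, rose from 7.56 ± 1.59 to 38.7 ± 3.82 FPKM, 5.12-fold (adjusted p = 2.2e-04). Of the 81 tested cytosolic ribosomal proteins, 4 (4.94%) rose, including 2 with a Ctrl mean under 1 FPKM, and 9 (11.1%) fell, with a median log2 change of -0.52. After scaling to a common median 1 rose and 14 fell, and the counts were 6 and 25 without Ctrl replicate 2, 2 and 8 without Ctrl replicate 1, 2 and 15 without Ctrl replicate 3, 1 and 7 without ttk-RNAi replicate 1, 1 and 5 without ttk-RNAi replicate 2 and 1 and 2 without ttk-RNAi replicate 3. RpLP2, a protein of the ribosomal stalk, fell from 7739 ± 2173 to 2220.4 ± 267 FPKM, 3.49-fold (adjusted p = 0.0016). Of the 16 tested genes of the V-ATPase, 5 (31.2%) rose and 1 (6.25%) fell, with a median log2 change of 0.26. The share that rose was near the 30.2% of all tested genes. With columns at a common median the counts were 4 and 4, and they were 8 and 4 without Ctrl replicate 2, 5 and 2 without Ctrl replicate 1 or 3 and 2 and 1 without ttk-RNAi replicate 1, 2 or 3. VhaAC45RP, listed with the V-ATPase, rose from 4.04 ± 1.39 to 127 ± 1.2 FPKM, 31.4-fold (adjusted p = 1.2e-05). Of the 26 tested genes of Polycomb and chromatin, 2 (7.69%) rose and 1 (3.85%) fell, with a median log2 change of 0.21. Columns scaled to a common median gave 1 and 4, and the counts were 4 and 4 without Ctrl replicate 2, 5 and 1 without Ctrl replicate 1, 1 and 0 without ttk-RNAi replicate 1 and 0 and 0 without ttk-RNAi replicate 2 or 3.

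**Figure D5:**
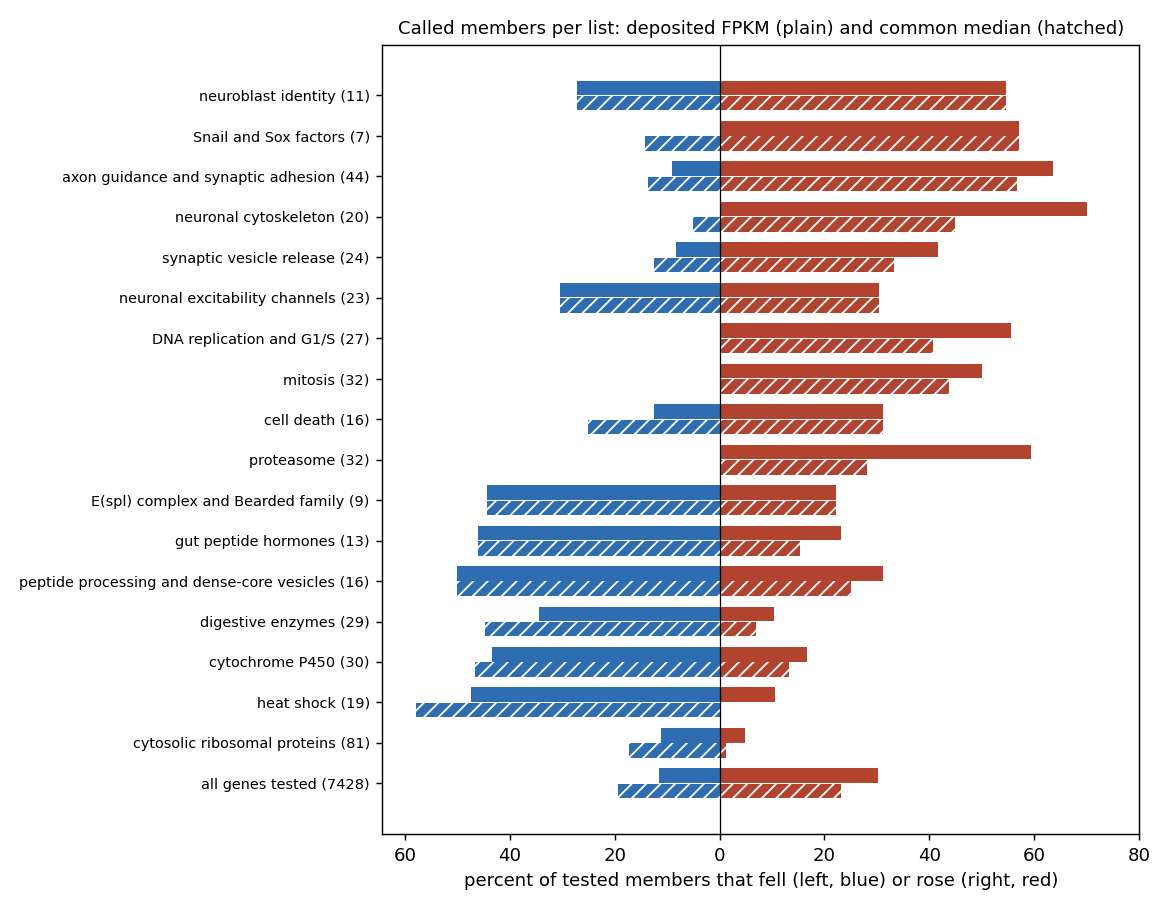
Percent of the tested members of each list that rose (red, right) or fell (blue, left) as deposited (plain bars) and with columns scaled to a common median (hatched bars), with the number tested in brackets. Over all tested genes the plain bars are 30.2% and 11.6%, and rises reach 70% for the neuronal cytoskeleton. Of the 20 tested genes of that list, 9 rose at a common median.

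Several of the 10 most abundant genes in each group did not pass the test. The long non-coding RNA lncRNA:CR40469 was at 21438, 71887 and 34416 FPKM in Ctrl and 51382, 29809.8 and 40874 in the libraries labelled ttk-RNAi, with overlapping groups (adjusted p = 0.9). RpL41, a ribosomal protein gene, was at 8188, 38209 and 8259 FPKM in Ctrl and 26356, 13593 and 19825 in the libraries labelled ttk-RNAi (adjusted p = 0.56), and it passed the test without Ctrl replicate 2 (adjusted p = 0.0062). RpS23 was at 8239, 10538 and 8733 FPKM in Ctrl and 13241, 10884 and 13221 in the libraries labelled ttk-RNAi (adjusted p = 0.14), and it passed the test without Ctrl replicate 2 (adjusted p = 0.0067). Levels of RpL21 and RpL10 were also high in both groups, and neither passed (adjusted p = 0.31 and adjusted p = 0.36). RpL23, a ribosomal protein, rose from 4264 ± 725 to 6665 ± 291 FPKM, 1.56-fold (adjusted p = 0.042). For RpL23 its call was lost without Ctrl replicate 1 or 3 or ttk-RNAi replicate 1, 2 or 3 (adjusted p from 0.082 to 0.18). His3.3B, histone variant H3.3, was 1.62-fold higher, at 4380.3 ± 693 FPKM against 2697 ± 466 in Ctrl (adjusted p = 0.045). For His3.3B its call was lost without Ctrl replicate 1 or ttk-RNAi replicate 1, 2 or 3 (adjusted p from 0.08 to 0.2). With columns scaled to a common median neither RpL23 nor His3.3B passed (adjusted p = 0.58 and 0.41).

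Of the 211 tested long non-coding RNAs, 106 (50.2%) rose, including 62 with a Ctrl mean under 1 FPKM, and 36 (17.1%) fell, with a median log2 change of 0.65. These counts became 91 and 48 at a common median and 112 and 51 without Ctrl replicate 2, 89 and 21 without ttk-RNAi replicate 1, 85 and 20 without ttk-RNAi replicate 2 and 87 and 21 without ttk-RNAi replicate 3. lncRNA:CR43704 was 188-fold higher, at 26.9 ± 4.298 FPKM against 0.143 ± 0.132 in Ctrl (adjusted p = 8.5e-06, 95% counting interval of the fold 95.4 to 435). For lncRNA:CR43704 the fold was 403 without Ctrl replicate 1. lncRNA:CR45378 fell from 33.9 ± 23.9 to 6.77 ± 0.5302 FPKM, 5.02-fold (adjusted p = 0.01), with 42% of its exon bases shared with other genes and its reads therefore uncertain. For lncRNA:CR45378 the fold was 2.98 without Ctrl replicate 2. lncRNA:CR44977 was 7.38-fold lower, at 0.872 ± 0.134 FPKM against 6.44 ± 1.35 in Ctrl (adjusted p = 1.9e-04). Of the 55 tested antisense RNAs, 26 (47.3%) rose, including 20 with a Ctrl mean under 1 FPKM, and 13 (23.6%) fell, with a median log2 change of 0.48. Once scaled to a common median 22 rose and 15 fell, and the counts were 29 and 16 without Ctrl replicate 2. The use of strand in counting is not given in the sources used here, so reads of a gene and its antisense partner may not have been told apart. Of the 10 tested genes of the piRNA pathway and germline, 5 (50%) rose, including 3 with a Ctrl mean under 1 FPKM, and 1 (10%) fell, with a median log2 change of 1.26. The counts were 5 and 1 at a common median, and 6 and 2 without Ctrl replicate 2 and 5 and 0 without ttk-RNAi replicate 1 or 2. AGO3, a Piwi-class Argonaute protein, rose from 1.33 ± 0.524 to 5.84 ± 0.255 FPKM, 4.37-fold (adjusted p = 7.9e-04). piwi, of the same protein class, was 15.8-fold higher, at 2.48 ± 0.333 FPKM against 0.157 ± 0.0661 in Ctrl (adjusted p = 4.6e-05). tej, a Tudor-domain protein of the piRNA pathway, rose from 0.368 ± 0.232 to 3.23 ± 0.431 FPKM, 8.77-fold (adjusted p = 2.2e-04). For tej the fold was 13.3 without Ctrl replicate 1. krimp, a Tudor-domain protein of germline granules, was 7.84-fold higher, at 1.98 ± 0.0794 FPKM against 0.252 ± 0.0428 in Ctrl (adjusted p = 4.5e-05). shu, a co-chaperone of the piRNA pathway, rose from 1.56 ± 0.481 to 5.24 ± 0.335 FPKM, 3.36-fold (adjusted p = 0.0015).

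Calls also varied with the length and place of a gene. Of the 1821 tested genes with exon lengths of 30 to 1148 bases 35.4% rose, and of the 1818 with 3400 to 69810 bases 24.2% did. Among 5393 pairs of neighbouring tested genes within 5000 bases, the second rose in 29.3% of all pairs and in 36.1% of the 1556 pairs whose first gene rose. The second fell in 10.6% of all pairs and in 19.01% of the 563 pairs whose first gene fell. Neighbours can share exon bases, and the part of this was not tested.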

How the data were processed

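RNA-seq values of 3 Ctrl and 3 ttk-RNAi libraries were taken from the table of 15 libraries. RNA extraction used an Arcturus PicoPure kit and amplification a RiboAmp HS PLUS kit, per the labels' protocols. The values are FPKM, deposited by the authors as 1 column per library and scaled by them to gene length and library total. STAR 2.6.1a, DESeq2 and BDGP6 are named in the submitters' processing notes, without their roles. The counting tool and the use of strand are not given in the sources used here.

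Symbols and positions came from BDGP6.54 for 17252 of 17558 identifiers, and 152 tested genes had no symbol and are not named. Depth was estimated from the FPKM worth of 1 read in genes of up to 20 reads, where 98.04% to 98.3% of values were whole within 0.02 reads. A fold resting on 9 or fewer reads in one group carries a 95% interval, the exact Poisson interval of those reads. It covers counting error only, since amplified reads are not independent molecules.

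Genes that reached 1 FPKM in 3 or more of the 6 libraries were tested on log2(FPKM + 1), which understates the change of low genes, with limma 3.58.1 in R 4.3.3 (variance trend, two-sided, 4 residual degrees of freedom). P-values were adjusted by Benjamini-Hochberg over all 7428 genes and called at 0.05. limma assumes 1 spread for both groups, whereas Ctrl varied more. On simulated data with each group's own spread, false calls exceeded the nominal rate, so the number of calls is uncertain; a fit with a spread of its own for each group was added after the data were seen, and it in turn gave too many false calls when the simulated spread was common to both groups. Libraries of a group differed by more than counting noise and none was counted as a duplicate, although amplified repeats of 1 sample could differ as much.

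The members and the 69 gene lists were chosen with earlier results of these data known. The rule for named genes takes the genes of the labels, the 20 largest rises and the 20 largest falls, the 10 most abundant genes of each group, up to 5 called members of each list in each direction with its first 6 entries, and 5 non-coding RNAs in each direction. It gives 593 genes, of which 427 were called. A selection of these, made with their values known, is described here, and E(spl)m8-HLH and Kaz-m1 lie outside the rule. No sequence was used here.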

Additional observations from a re-analysis of the deposited data

How the results depend on the processing

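Genes higher and lower in ttk-RNAi numbered 2243 and 862. Scaling moved the lower count to 1442 at a common median, 1447 with median-of-ratios and 1613 with quantile normalization, against 1720, 1722 and 1689 higher. With a mean of at least 5 FPKM, 1171 were higher and 436 lower of 4254 tested, fewer because fewer genes were tested. With no filter on low values 3500 were higher and 1068 lower of 15555. Leaving out 1 library gave 1504 to 2867 higher and 509 to 1719 lower; 2867 and 1719 came without Ctrl replicate 2, and 1504 and 509 without ttk-RNAi replicate 1. Scaled to a common median without Ctrl replicate 2, chosen after seeing the data, 2382 were higher and 2210 lower. Counts within 1.5 times of both were 2150 and 841 with a pseudocount of 0.1, 2491 and 1011 with all 15 libraries, and 1990 and 746 with a spread of its own for each group, also chosen after seeing the data. The cause was not tested. Whether equal replicate numbers mark paired samples is not given. Same-numbered deviations correlated at -0.057, 0.0095 and -0.073, which with 3 libraries per group cannot show that samples were unpaired. The fit with a replicate block gave 2026 and 755. Of the 427 called genes of the rule for named genes, the call was lost for 42 at a common median (42 with median-of-ratios, 39 and 3 reversed with quantile normalization), 33 with the block, 35 with no filter, 37 with own spreads, 28, 1 and 42 without Ctrl replicates 1, 2 and 3, and 102 to 106 without a ttk-RNAi replicate. The 193 called genes described in the text were steadier, having been picked with values known: 3 were lost under each scaling, 7 with the block, 9, 0 and 10 without the Ctrl replicates, and 23, 21 and 21 without the ttk-RNAi replicates. Some genes that did not pass changed sign. The log2 change of E(spl)m7-HLH was 0.18 without Ctrl replicate 3 and 0.09 without ttk-RNAi replicate 2, and that of pros was 0.064 without Ctrl replicate 3. For elav it was -0.072 at a common median, -0.073 with median-of-ratios, -0.067 with quantile normalization and -0.16 scaled without Ctrl replicate 2. For Sox21a it was -0.20 at a common median and with median-of-ratios, -0.26 with quantile normalization, -0.54 without Ctrl replicate 2, 0.57 without Ctrl replicate 1 and -0.74 scaled without Ctrl replicate 2. For lncRNA:CR40469 it was -0.31 at a common median and with median-of-ratios, -0.325 without Ctrl replicate 1, 0.55 without Ctrl replicate 2 and -0.11 without ttk-RNAi replicate 1. The change at a common median, with median-of-ratios and scaled without Ctrl replicate 2 was -0.082, -0.083 and -0.07006 for RpL21 and -0.034, -0.036 and -0.15 for RpL10. Depth limits genes at a few reads, whose folds carry counting intervals.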
